A study of Mus musculus with 21 samples.

Results

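Tcf7-positive cycling cells are described here in mouse CD8 T cells expanded for 10 days with a low dose of the interleukin-2 variant IL-2v. A cell was counted as Tcf7-positive with at least 1 UMI (unique molecular identifier, 1 captured RNA molecule) of Tcf7, and as cycling with at least 1 UMI of Mki67 or Top2a. In the library of this culture 948 of 6181 cells met both conditions, out of 106456 cells in the whole series. They were set against cycling cells of the same library with 0 Tcf7 UMIs (1563 cells), matched on UMIs per cell. Tcf7, Mki67 and Top2a were left out of every comparison of genes.

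Tcf7 encodes TCF-1, a transcription factor that keeps naive, memory and stem-like CD8 T cells able to renew themselves and that falls as cells become killers. Mki67 encodes the proliferation antigen Ki-67, and Top2a encodes the topoisomerase that untangles chromosomes before division. Interleukin-2 drives T cells to divide and at the same time pushes them toward an effector state, so a dividing cell that still carries Tcf7 RNA stands between these programmes. The title of the series names the coupling of proliferation with stemness as its subject.

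The series held 21 libraries of OT1 cells, which carry 1 transgenic T cell receptor against an ovalbumin peptide. Naive CD8+ OT1 cells were sampled on day 0. The remaining cultures started from bead activation through CD3 and CD28 and were sampled on days 3 and 5 without cytokine, or on days 3, 5 and 10 with IL-2, IL-2v or IL-15 at 5 or 50 IU/mL. The treatment label of the library described here reads mutant IL-2bg, 5 IU/mL. All day 10 cultures shared the beads, and each condition was 1 library, so cells within it are not replicates of the condition. The treatment labels of the 50 IU/mL IL-2 and IL-15 libraries name other interleukins, and the titles were followed. No age or sex of the mice was given, and the extraction text speaks of sorted tumour-infiltrating cells although the growth text describes culture.

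The library described here held 32648496 UMIs, with a median of 4780 per cell. T cell markers were present: 97.5% of the 943 matched Tcf7-positive cycling cells had a Cd3d UMI and 91.1% a Cd8b1 UMI. Several defining markers of other cell types were at 0. No UMI of Cd4, Ms4a1 (B cells), Lyz2 (myeloid cells), Hbb-bt (red cells) or Ncr1 (natural killer cells) was found in the 943 cells, which allows a share of up to 0.318% of cells with a UMI of each. Other members of these marker lists were found at low levels, among them Cd79a (B cells) with 1 UMI. The other marker lists held 2 genes above 50 CPM. Trdc, the constant segment of the delta T cell receptor, had a UMI in 43.6% of these cells and 42.9% of the matched Tcf7-zero cells. Ighm, the constant segment of the mu heavy chain of antibodies, was at 273 CPM (UMIs of the gene per 1e6 UMIs; exact Poisson interval 260 to 286) against 231 CPM (220 to 243), and made up most of the summed level of the 7 B cell markers, 277 against 235 CPM. Its part in the results below was not tested. The summed levels of the CD4 T cell, myeloid and red cell lists were 1.85, 4.17 and 0.927 CPM against 1.71, 3.42 and 2.48 CPM. These sums were scaled by a trimmed mean of log ratios. No 2 libraries shared more than 19 barcode sequences.

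The cells were chosen by their UMIs of Tcf7, Mki67 and Top2a, and these values were low. Of the 948 cells, 666 had a single Tcf7 UMI, 194 had 2 and 88 had 3 or more. The cycling call was firmer, since 605 cells had UMIs of both Mki67 and Top2a and 618 had at least 3 UMIs of these genes together. A single UMI of the pair carried the call in 231 cells (24.4%). The Tcf7-zero cycling cells were alike in this respect, with a single UMI in 25.1%. A cell with 0 Tcf7 UMIs may hold Tcf7 RNA that was not captured, so the classes differ in captured Tcf7 RNA and are not separate types.

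Without adjustment for depth, 37.8% of cycling cells (95% exact Clopper-Pearson interval 35.9 to 39.7) and 35.2% of non-cycling cells had a Tcf7 UMI. Cycling cells were deeper, with a median of 6424 UMIs against 4274 in non-cycling cells. After every cell was thinned to 2000 UMIs (58 shallower cells left out), the shares were 13.6% (12.1 to 15.2) of 1929 cycling cells and 18.9% (17.7 to 20.1) of non-cycling cells. The pooled level of Tcf7 was 81.1 CPM (76.9 to 85.6) in cycling and 110.5 CPM (105.5 to 115.8) in non-cycling cells. Cycling cells therefore carried less Tcf7 RNA per UMI, although more of them had a Tcf7 UMI before thinning. Intervals here and below cover counting error only.

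**Figure D1:**
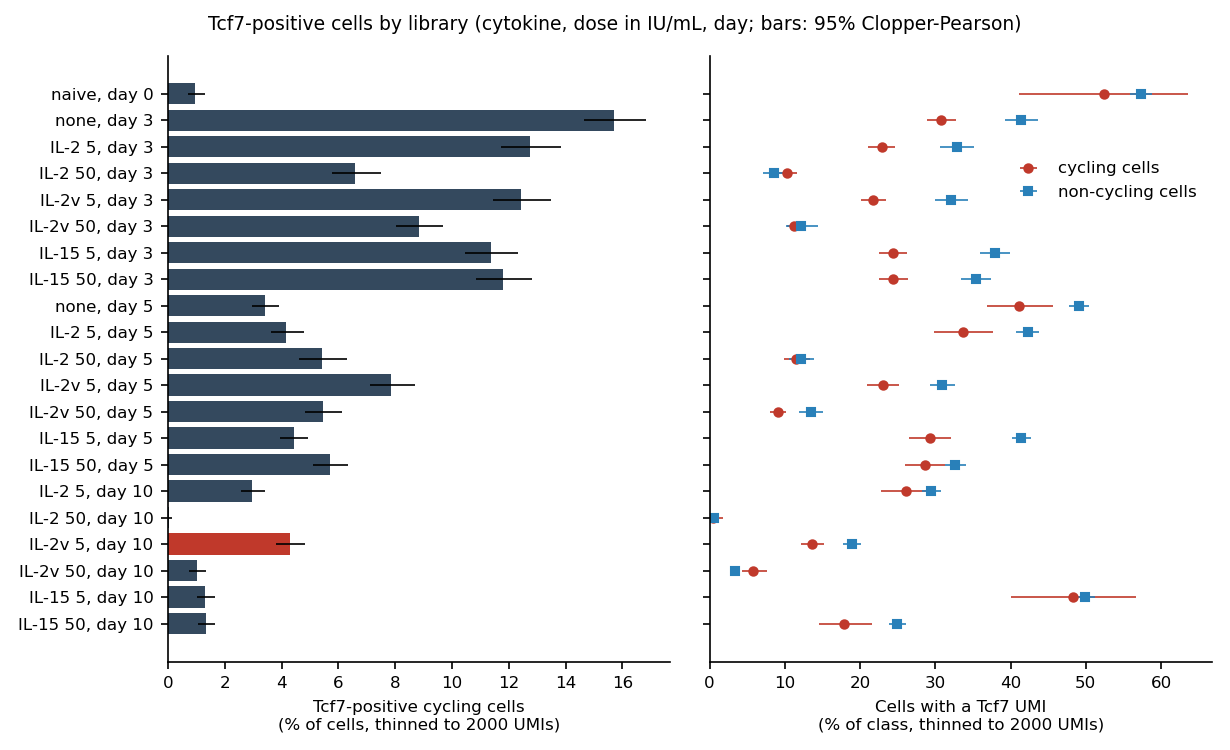
Tcf7-positive cycling cells in the 21 libraries after thinning to 2000 UMIs per cell. Left, their percent of all cells; right, the percent of cycling (circles) and non-cycling (squares) cells with a Tcf7 UMI; lines are 95% Clopper-Pearson intervals, and the red bar is the low-dose IL-2v culture at day 10, at 4.30%.

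Among day 10 cultures this library had the largest thinned share of Tcf7-positive cycling cells, at 4.30% of all cells (3.80 to 4.83). The 5 IU/mL IL-2 culture followed with 2.98% (2.56 to 3.43). The 50 IU/mL IL-15 culture had 1.34% (1.07 to 1.65), the 5 IU/mL IL-15 culture 1.32% (1.03 to 1.66) and the 50 IU/mL IL-2v culture 1.01% (0.751 to 1.33). The shares rest on the UMIs that chose the cells, and each culture was 1 library. The intervals do not measure the spread between cultures, so the differences between cultures were not tested. The 50 IU/mL IL-2 culture had 0.0426%, from 2 thinned cells.

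The order of the cultures was another for cycling and for Tcf7 taken alone. Thinned cells with a Mki67 or Top2a UMI made up 31.5% of the low-dose IL-2v library, against 11.4% with 5 IU/mL IL-2, 2.73% with 5 IU/mL IL-15 and 17.4% with 50 IU/mL IL-2v. Tcf7 itself was higher elsewhere: the pooled level in cycling cells was 154 CPM with 5 IU/mL IL-2, 356 CPM with 5 IU/mL IL-15 and 111 CPM with 50 IU/mL IL-15. It was lower in both 50 IU/mL cultures of the IL-2 type, at 21.7 CPM with IL-2v and 2.61 CPM with IL-2. Earlier libraries of the same low-dose IL-2v condition had 12.4% (day 3) and 7.87% (day 5) Tcf7-positive cycling cells after thinning.

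The cycling call was also weaker in other day 10 cultures. A single Mki67 or Top2a UMI carried it in 83.7% of the Tcf7-positive cycling cells with 5 IU/mL IL-15, 58.6% with 50 IU/mL IL-15 and 49.8% with 5 IU/mL IL-2, against 24.4% here. The median sum of S, G2 and M phase gene UMIs per such cell was 11, 16 and 23 in those cultures and 77.5 in the low-dose IL-2v culture. The 50 IU/mL IL-2v culture lay nearer, at 34.0% and a median of 51. The 50 IU/mL IL-2 culture, with 11 such cells, was at 45.5% and 26.

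Next, Tcf7-positive and Tcf7-zero cycling cells of the low-dose IL-2v library were compared as sums over 943 cells each. Their median UMIs (6548 and 6575), percent of ribosomal protein UMIs (32.5 and 32.4) and of mitochondrial UMIs (4.09 and 4.01), and summed cell cycle UMIs per cell (77 and 81) were close. This contrast is the one that chose the cells, so its values are a description with no test. A gene was called here when its log2(CPM + 1) values lay 0.32 or more apart. Of 2782 genes with at least 50 CPM in either group, 16 were called higher (0.575%) and 14 lower (0.503%) in the Tcf7-positive cells. The median log2 difference over all 2782 genes was near 0, at -0.0035.

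Genes of naive and memory T cells were among those on the higher side, with Dapl1 first. Dapl1, a marker of naive and memory-like CD8 T cells (chr2:59484653-59505020, mm10), was at 183 CPM (173 to 194) against 122 CPM (114 to 131), a log2(CPM + 1) difference of 0.59. Ccr7, the chemokine receptor that guides cells into lymph nodes, was at 69.4 CPM (63.2 to 76.2) against 52.8 CPM (47.3 to 58.7). Cd27, a costimulatory receptor of naive and memory cells, was at 106 CPM (97.9 to 114) against 80.4 CPM (73.7 to 87.7). In each of these 3 genes the counting intervals of the 2 groups of 943 cells did not overlap. The genes had already been called for their difference, so this adds no support. The share of all tested genes without overlap is not given here. In smaller matched sets given below, the intervals of Ccr7 and Cd27 did overlap.

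Ripor2 (0.47 on the log2 scale), Rabgap1l (0.42), BE692007 (0.41) and Dgka (0.40) came next after Dapl1 and before Ccr7 and Cd27 (0.39 each), which were followed by Gm8369 (0.37), Gm26740 (0.37), Mgst2 (0.36) and Usp3 (0.36). Rabgap1l (362 against 269 UMIs) and Gm26740 (326 against 252 UMIs) reached 50 CPM in the Tcf7-positive cells alone. They entered the comparison only through the group where they were higher. Dgka encodes a diacylglycerol kinase that dampens T cell receptor signalling. BE692007 has stretches near-identical to transcripts of Olfr509 and Upb1, so its counts are uncertain. It also shares 20.8% of its exonic bases with a gene on the other strand.

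The lower side began with a pair of interferon-induced genes, followed by effector genes. Ifitm1, an interferon-induced membrane protein, was at 281 CPM (268 to 294) against 447 CPM (431 to 464), a log2 difference of -0.67, and Ifitm2 had a difference of -0.62. Gzmb, the protease granzyme B that killer cells release into targets (chr14:56258838-56262260), was at 386 CPM (371 to 401) against 589 CPM (570 to 608), a log2 difference of -0.61. S100a4, a calcium-binding protein of effector cells, was at 510 CPM (493 to 528) against 747 CPM (726 to 769). Id2, a helix-loop-helix inhibitor needed for effector cells (chr12:25093799-25097140), was at 254 CPM (241 to 266) against 345 CPM (331 to 360). Ifitm1, Ifitm2 and S100a4 have near-identical or overlapping gene models, so their counts are uncertain.

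Magohb (-0.40), Prdx4 (-0.38), Cish (-0.36), Scd1 (-0.35), Rad50 (-0.34), Cxcr6 (-0.34) and Pam16 (-0.34) completed the 12 lowest. Cish encodes a feedback inhibitor of cytokine signalling induced by STAT5, and Cxcr6 a chemokine receptor of tissue-resident effector cells. Magohb, Scd1 and Pam16 also have near-identical relatives. Scd1 (264 against 339 UMIs) and Pam16 (280 against 357 UMIs) reached 50 CPM in the Tcf7-zero cells alone. They too entered only through the group where they were higher.

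**Figure D2:**
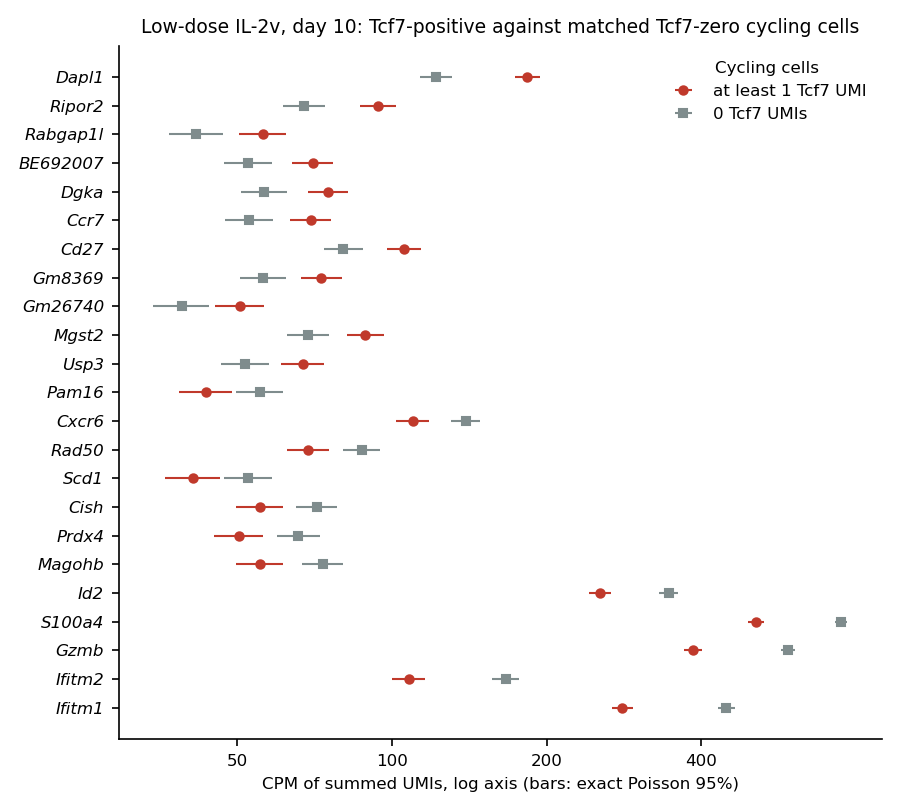
Levels of 11 leading higher genes and the 12 lowest genes among those called in the low-dose IL-2v library at day 10, as CPM on a log axis, in 943 Tcf7-positive (red circles) and 943 matched Tcf7-zero (grey squares) cycling cells. Lines are exact Poisson 95% intervals; Gzmb and S100a4 have the highest levels among the lower genes, and Dapl1 among the higher genes.

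Most of these genes differed in degree, with many cells of both groups positive. After thinning, 23.9% of Tcf7-positive and 15.2% of Tcf7-zero cells had a Dapl1 UMI, and 46.2% and 59.1% a Gzmb UMI; before thinning the Gzmb shares were 75.4% and 84.4%. Ifitm1 was carried by fewer cells, with a UMI in 22.1% of Tcf7-positive and 29.4% of Tcf7-zero cells.

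Gzma, encoding granzyme A, lay below the level needed for a call and shows how few cells can set a sum. It had 25 UMIs against 195, or 3.88 CPM (2.51 to 5.72) against 30.2 CPM (26.1 to 34.7). The 10 richest of the 943 Tcf7-zero cells held 182 of the 195 UMIs, and 1 cell held 80. For Gzmb the 10 richest cells held 202 of 3805 UMIs.

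The gene lists are read against the shares over all genes given above. They were chosen with earlier results of these data known, so list counts here and below are not independent support. Of 24 stem and memory genes, 12 reached 50 CPM, 5 of them were higher (among them Dapl1, Ccr7, Cd27 and Klf2) and 0 lower, with a median log2 difference of 0.24. Klf2, a transcription factor that switches on the egress receptor S1pr1, was at 283 CPM (270 to 297) against 225 CPM (213 to 236). Lef1, the closest relative of TCF-1, had a difference of 0.22, S1pr1 of 0.26, and Bcl2, a survival factor, of 0.09. Ly6c2, whose count is uncertain because Ly6c1 is near-identical, lay on the other side, at -0.12. Il7r, the interleukin-7 receptor, was too low for a call, at 19.4 CPM (16.1 to 23.1) against 13.6 CPM (10.9 to 16.8).

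Of 32 effector genes, 11 reached 50 CPM, and 3 were lower (Gzmb, S100a4 and Id2) and 0 higher, with a median of -0.18. Nkg7, a protein of cytotoxic granules, had a difference of -0.16, and Eomes, a transcription factor of memory and effector cells, of -0.26. Srgn, the granule proteoglycan, was on the other side at 0.12. Ifng, Ccl3 and Klrg1 had at most 16 UMIs in either group.

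Of 29 S phase genes with at least 50 CPM, 0 were called in either direction (median -0.06; 1 was lower with TMM, a scaling by a trimmed mean of log ratios), and 0 of 40 G2 and M phase genes were (median -0.03). Glycolysis (11 genes, median -0.11), amino acid and one-carbon metabolism (11 genes, median -0.11) and cholesterol synthesis (14 genes, median -0.06) also had 0 calls. Among 10 IL-2 receptor and STAT5 target genes, Cish was the single call. There was no call among 10 genes of the TCF-1 family and its partners. With under 1% of all genes called in either direction, counts of 0 in lists of this size are near the background and say nothing particular about these lists.

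With more Tcf7 UMIs the difference from matched Tcf7-zero cells was larger for some genes and smaller for others. Each class had its own matched Tcf7-zero cells. Cells just inside the rule, with 1 Tcf7 UMI (664 matched), had a log2 difference of 0.42 for Dapl1, 0.38 for Ripor2, -0.42 for Gzmb and -0.50 for Ifitm2. Cells with 2 or more (282 matched) had 0.83, 0.97, -0.76 and -0.88. S100a4 was the same in both classes, at -0.50, and BE692007 similar, at 0.44 and 0.43. The difference was smaller with 2 or more for Prdx4 (-0.43 and -0.37), Scd1 (-0.41 and -0.32) and Gzma (-1.96 and -1.36). Gzma was at 4.47 against 20.3 CPM with 1 UMI and at 2.48 against 7.92 CPM with 2 or more. Scd1 was at 41.6 against 55.6 CPM and at 38.7 against 48.5 CPM. Both values were thus lower in cells with 2 or more, and so were those of their drawn Tcf7-zero cells. Id3, a helix-loop-helix inhibitor of memory cells that stayed below 50 CPM, was at -0.37 with 1 UMI and 0.43 with 2 or more. These values are given without counting intervals. The steps between classes for Gzma, Scd1 and Id3, all at low levels, may lie within counting error.

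Cycling and Tcf7 were then crossed in 4 groups of 407 cells, matched on UMIs. Klf2 was at 310 CPM in Tcf7-positive cycling cells, 253 CPM in Tcf7-zero cycling cells, 361 CPM in Tcf7-positive non-cycling cells and 317 CPM in Tcf7-zero non-cycling cells. It was thus lower in cycling cells of either Tcf7 class and higher with Tcf7 in either cycling class, although the intervals of the non-cycling groups overlapped. Gzmb was at 348, 579, 469 and 568 CPM in the same order, lowest in Tcf7-positive cycling cells. Dapl1 was at 227 CPM (208 to 249) in Tcf7-positive cycling cells and at 141, 136 and 131 CPM in the others, whose intervals overlapped each other. In both cycling groups the Dapl1 and Klf2 levels lay above the intervals given for 943 cells. Which cells were drawn thus moved these values beyond counting error. Some called genes were less clear in these sets. Cd27 was at 107 CPM (93.5 to 122) in Tcf7-positive against 99.7 CPM (86.7 to 114) in Tcf7-zero cycling cells. Ccr7 was at 74.6 CPM (63.4 to 87.1) against 57.1 CPM (47.4 to 68.2). Cish was at 64.7 CPM (54.4 to 76.5) against 62.7 CPM (52.5 to 74.3). The intervals overlapped in each of these genes. Whether the Tcf7 difference itself depended on cycling cannot be tested with 1 library.

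**Figure D3:**
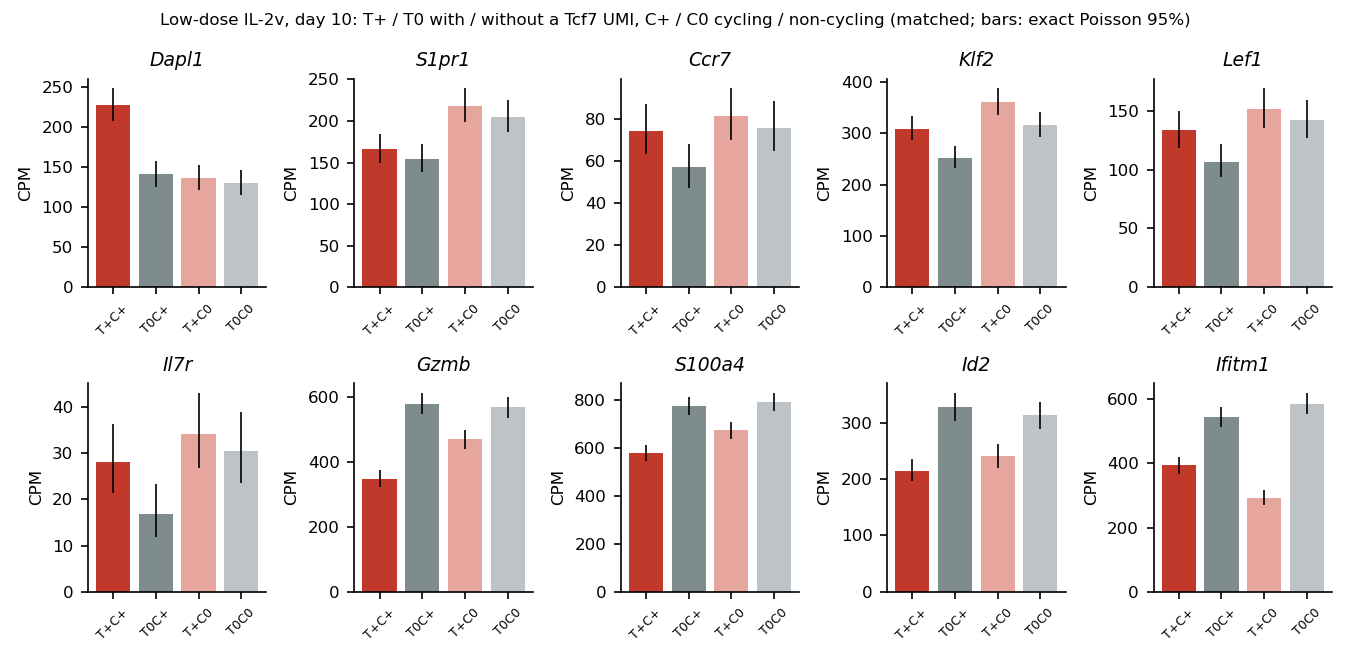
CPM of 10 genes in 4 groups of 407 UMI-matched cells of the low-dose IL-2v library at day 10, by Tcf7 UMIs (T+ or T0) and cycling (C+ or C0). Lines are exact Poisson 95% intervals; Dapl1 is highest in T+C+ cells, at 227 CPM, and Gzmb lowest there, at 348 CPM.

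Tcf7-positive cycling cells were also set against Tcf7-positive non-cycling cells of their library. By the same threshold, 683 of 2754 genes were called higher (24.8%) and 172 lower (6.25%) in the cycling cells. With TMM scaling, which moved the median over all genes from 0.09 to -0.01, the split was 487 higher and 351 lower. Cell cycle genes follow from how the cells were chosen: all 27 S phase genes (25 of 26 with TMM scaling) and all 33 G2 and M phase genes tested were higher, and Hist1h2ap, a replication-dependent histone, stood at 1930 against 16.0 CPM. Hist1h2ap has near-identical copies, so its count is uncertain. Outside the cell cycle lists, 11 of 13 genes for cholesterol synthesis (7 of 13 with TMM scaling) and 9 of 11 for amino acid and one-carbon metabolism were higher. Of 13 stem and memory genes 5 were lower and 1 higher (median -0.19), and 4 of 11 effector genes were lower (0 higher). TMM scaling kept these directions. Among 10 IL-2 receptor and STAT5 target genes 5 were lower (7 with TMM scaling) and 0 higher. Ribosomal protein genes had 0 of 81 called and a median of -0.21, and 32 of 81 were lower with TMM scaling. The median share of ribosomal protein UMIs per cell was 32.5% in all Tcf7-positive cycling and 39.6% in all Tcf7-positive non-cycling cells, and its part in these counts was not tested. Ccl5, a chemokine of memory and effector cells, was at 159 CPM (143 to 176) against 276 CPM (255 to 299), and Mxd4, a MYC antagonist of resting cells, at 44.4 CPM (36.3 to 53.9) against 84.9 CPM (73.5 to 97.7).

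The contrast by Tcf7 was repeated in libraries that the rule did not use. The other day 10 cultures with at least 50 matched cells per group were those with 5 IU/mL IL-2 (478 cells per group), 50 IU/mL IL-2v (141), 5 IU/mL IL-15 (67) and 50 IU/mL IL-15 (345). The 50 IU/mL IL-2 culture, with 11 Tcf7-positive cycling cells, was left out. UMIs summed per group and library were tested with edgeR's quasi-likelihood test with library as a block, so each of the 4 libraries served as 1 pair. These are single cultures of different conditions, and p-values measure the spread of the Tcf7 difference between them.

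Of 8580 genes, 18 were higher (0.21%) and 30 lower (0.35%) in Tcf7-positive cycling cells at an adjusted p (Benjamini-Hochberg, edgeR) below 0.05. At an unadjusted p below 0.05, 377 were higher (4.39%) and 377 lower (4.39%), the background for the unadjusted counts given below. Dapl1 rose by 1.27 on the log2 scale (SE 0.17, adjusted p = 4.86e-05). Its level was 46.5 against 11.9 CPM with 5 IU/mL IL-2, 85.3 against 12.01 CPM with 50 IU/mL IL-2v, 124 against 56.4 CPM with 5 IU/mL IL-15 and 178 against 104 CPM with 50 IU/mL IL-15. All 4 libraries were higher. Dapl1 also passed with DESeq2 (adjusted p = 0.000123).

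Among the 8 highest tested genes were also Slamf6 (1.07), a receptor of stem-like exhausted and memory cells, Gm26740 (0.96), Klf3 (0.88), a Kruppel-like repressor, Actn1 (0.81), an actinin of naive-like T cells, Arl5c (0.77) and Cmah (0.73), an enzyme of sialic acid synthesis. DESeq2 did not call Actn1 (adjusted p = 0.0622), Arl5c (0.0622) or Cmah (0.121) and gave no adjusted p for Slamf6 and Klf3. Klf3 did not pass by edgeR without the 50 IU/mL IL-15 culture (adjusted p = 0.224). Klf2 (0.47), Il7r (0.61) and Lef1 (0.45) also passed by edgeR. DESeq2 did not call them (adjusted p = 0.133, 0.295 and 0.368), and without the 50 IU/mL IL-15 culture Lef1 did not pass by edgeR either (adjusted p = 0.179). In all, 8 of 21 tested stem and memory genes rose by edgeR and 0 fell, with 17 higher and 2 lower at an unadjusted p below 0.05. DESeq2 called 2 higher. Of the 16 genes higher in the low-dose IL-2v library, all 16 had a positive estimate here and 6 passed (among them Dapl1, BE692007, Gm8369, Gm26740 and Klf2). Over all 8580 genes, 4174 had a positive estimate. DESeq2 called 4 of the 16. Gm8369 did not pass with DESeq2 (adjusted p = 0.251). By edgeR it did not pass without the 50 IU/mL IL-15 culture (adjusted p = 0.061) or without the 50 IU/mL IL-2v culture (0.0586). Ccr7 was higher in 4 of 4 libraries but did not pass (0.42, adjusted p = 0.113).

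Markers of other cell types moved with this contrast too. Ighm, 1 of 2 tested B cell markers of 7, rose by 0.55 (edgeR adjusted p = 0.00139; DESeq2 adjusted p = 0.0622). It was at 322 against 187 CPM with 5 IU/mL IL-2, 167 against 95 CPM with 50 IU/mL IL-2v, 329 against 317 CPM with 5 IU/mL IL-15 and 223 against 168 CPM with 50 IU/mL IL-15, higher in 4 of 4 libraries. Zbtb7b, a transcription factor of CD4 T cells (-0.75, adjusted p = 0.478), and Klrb1c, the natural killer receptor NK1.1 (-1.32, adjusted p = 0.0846), lay lower at an unadjusted p below 0.05 and did not pass. Of these markers, Klrb1c had at most 79 UMIs and Zbtb7b at most 32 in any group. Their part in the differences was not tested.

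On the lower side Gzmb fell by 0.94 on the log2 scale (SE 0.09, adjusted p = 1.40e-07 by edgeR). It was at 678 against 1437 CPM with 5 IU/mL IL-2, 1334 against 2526 CPM with 50 IU/mL IL-2v, 83.6 against 121 CPM with 50 IU/mL IL-15, and 0 against 7 UMIs with 5 IU/mL IL-15. All 4 libraries were lower. DESeq2 did not call Gzmb (adjusted p = 0.89), nor Ifitm1 (0.527), Id2 (0.997), Gzma (0.997) or Gzmc (0.997). S100a4 (-0.74) and Ifitm2 (-1.01) passed with both tools, with DESeq2 adjusted p = 0.00257 and 6.73e-08.

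The 8 lowest by edgeR were Gzmc (-2.88), Gzma (-1.90), Sult2b1 (-1.55), Gm36723 (-1.40), Cdh1 (-1.35), Ccn3 (-1.33), Ifitm1 (-1.28) and Basp1 (-1.25). DESeq2 gave no adjusted p for Sult2b1, Gm36723, Cdh1, Ccn3 and Basp1. Without the 5 IU/mL IL-2 or the 50 IU/mL IL-2v culture, edgeR gave no value for Sult2b1, Gm36723, Cdh1 and Ccn3. Basp1 did not pass by edgeR without the 50 IU/mL IL-15 culture (adjusted p = 0.0545) or without the 50 IU/mL IL-2v culture (0.0875). Granzyme C, the product of Gzmc, marks strongly stimulated killer cells; its RNA had 46 against 288 UMIs with 5 IU/mL IL-2 and 41 against 344 UMIs with 50 IU/mL IL-2v, and 0 UMIs in both IL-15 cultures. Gzma ran the other way in 1 library, with 4 UMIs against 0 with 50 IU/mL IL-15. Tnfrsf9, the activation receptor 4-1BB, fell by 1.06 and was called by both tools (DESeq2 adjusted p = 0.00976). In all, 7 of 21 effector genes fell by edgeR and 0 rose, with 13 lower and 1 higher at an unadjusted p below 0.05. DESeq2 called 1 lower. Of the 14 genes lower in the low-dose IL-2v library 13 were tested, all 13 had a negative estimate, from -1.28 to -0.00043, and 5 passed. DESeq2 called 2 of them. Single libraries were less uniform. Of these lower genes with at least 50 CPM there, 10 of 12 were lower with 5 IU/mL IL-2 and 8 of 13 with 50 IU/mL IL-2v (where 1, Pam16, was called higher). The counts were 4 of 4 with 5 IU/mL IL-15 and 9 of 10 with 50 IU/mL IL-15. As background, 57.9, 53.4, 50.7 and 50% of all genes with at least 50 CPM lay above 0 in these libraries, in the same order.

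These calls leaned on 1 library. Without the 5 IU/mL IL-2 culture edgeR called 0 higher and 4 lower genes (Gzma, Gzmb, Ifitm1 and Ifitm2), with 183 higher and 165 lower at an unadjusted p below 0.05, and Dapl1 had an adjusted p = 0.121. Without the 50 IU/mL IL-2v culture it called 28 higher and 64 lower. DESeq2 on all 4 called 4 higher and 3 lower.

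By edgeR 0 of 45 S phase genes passed (median -0.26, 2 above 0), although 19 were lower and 0 higher at an unadjusted p below 0.05. The count was also 0 of 52 for G2 and M phase genes (median 0.07), with 9 higher and 0 lower at that unadjusted level. DESeq2 called 0 genes of either list. Over the 16 other cytokine libraries of days 3, 5 and 10, edgeR called 927 higher (9.44%) and 1068 lower genes (10.9%) of 9816, and 1401 (14.3%) and 1679 (17.1%) had an unadjusted p below 0.05. There all 16 genes higher in the low-dose IL-2v library rose and 12 of its 14 lower genes fell, while 31 of 45 S phase genes fell and 0 rose (39 lower and 0 higher at an unadjusted p below 0.05). Dapl1 and Klf2 were each higher in 16 of 16 libraries, and Gzmb and S100a4 were lower in 16 of 16.

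**Figure D4:**
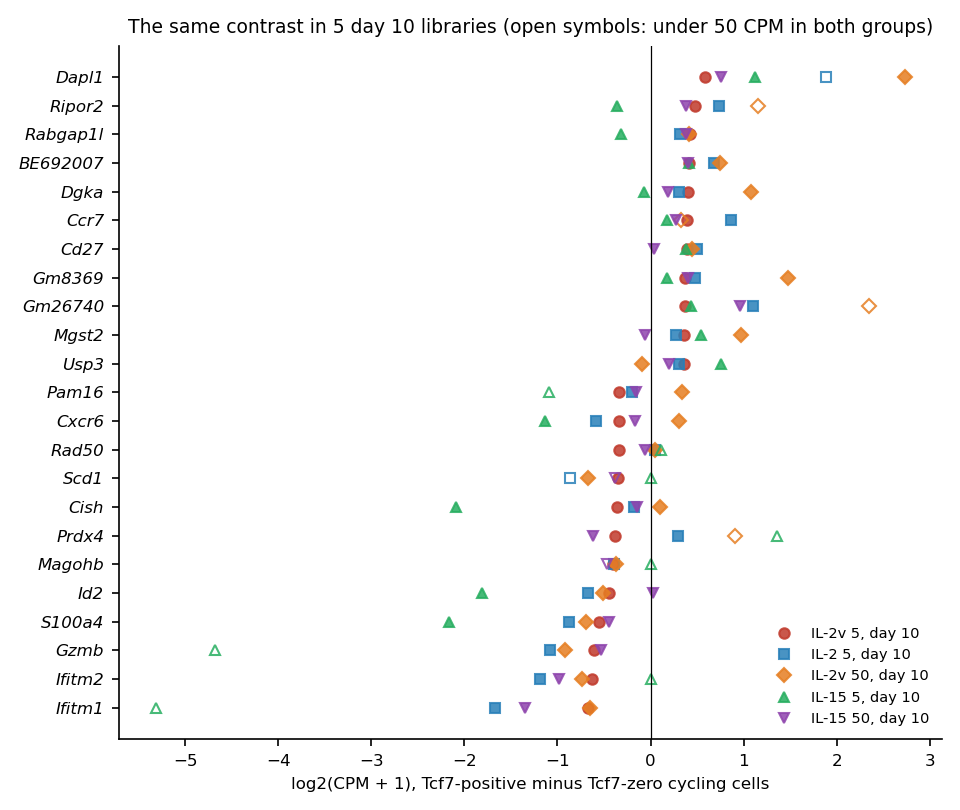
Log2(CPM + 1) difference between Tcf7-positive and matched Tcf7-zero cycling cells for 23 leading genes of the low-dose IL-2v library (red circles) and in 4 other day 10 libraries. Open symbols mark genes under 50 CPM in both groups; Dapl1 lies right of 0 in all 5 libraries, from 0.59 to 2.73.

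Day 3 libraries with similar summed UMIs, but fewer UMIs per cell (medians of 5252 to 5554.5 against 6548), had more genes called by the same threshold than the 16 higher and 14 lower here. The culture without cytokine had 144 higher and 131 lower. The low-dose cultures had 109 and 112 (IL-2v) or 116 and 165 (IL-15), and the 50 IU/mL cultures 117 and 108 (IL-15) or 45 and 26 (IL-2v). The summed UMIs of their Tcf7-positive cells were 6334720, 6291490, 6295200, 6093780 and 5807680, against 6462540 here. Pooled Tcf7 in cycling cells was 215, 136, 168, 166 and 63.9 CPM in the same order, against 81.1 CPM here, and its part in the counts was not tested. With 1 library per condition the difference in counts has no test either.

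Finally, Tcf7-positive cycling cells of the low-dose IL-2v culture were set against those of other cultures, matched on UMIs, with a 2-fold threshold and no test. Against 5 IU/mL IL-2 at day 10 (515 cells each), 139 of 3151 genes were higher (4.41%) and 173 lower (5.49%). The balance turned with TMM scaling, to 198 higher and 114 lower, as the median over all genes moved from -0.06 to 0.07. Cholesterol synthesis genes were higher (12 of 14, median 1.70), among them Hmgcs1, which makes a precursor of mevalonate, at 304 CPM (287 to 323) against 49.0 CPM (42.1 to 56.8). Fads2, a fatty acid desaturase, had the largest difference on the higher side, at 69.4 against 4.63 CPM. Effector genes were lower (7 of 15, 0 higher), with Gzma at 1.64 CPM (0.601 to 3.57) against 572 CPM (548 to 597), and so were 6 of 14 glycolysis genes. Stem and memory genes were mixed, 2 of 15 higher and 4 lower. With TMM scaling 4 of 14 effector and 4 of 14 glycolysis genes were lower, and 3 of 14 stem and memory genes were higher and 2 lower.

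Against 5 IU/mL IL-15 at day 10 (206 cells each), 488 of 3112 genes were higher (15.7%) and 258 lower (8.29%). Here 30 of 35 G2 and M phase and 22 of 25 S phase genes were higher, beside the weaker cycling call in the IL-15 cells given above. All 13 cholesterol synthesis genes and 8 of 11 glycolysis genes were higher. Stem and memory genes were lower (11 of 19, 1 higher), with Il7r at 31.6 CPM (22.1 to 43.7) against 999 CPM (941 to 1058). Effector genes were higher, 6 of 11 with TMM scaling (1 lower, median 2.54). Ifitm1 had 403 UMIs against 0 and Lgals3, a galectin of effector cells, 277 UMIs against 0.

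Against 50 IU/mL IL-2v at day 10 (139 cells each), 142 of 3025 genes were higher (4.69%) and 154 lower (5.09%). Stem and memory genes were higher (5 of 12, 0 lower): S1pr1, the receptor for exit from lymph nodes, was at 166 CPM (141 to 195) against 20.9 CPM (12.6 to 32.6), and Klf2 at 273 CPM (240 to 309) against 60.5 CPM (45.6 to 78.7). S phase genes were also higher (10 of 30). Effector (7 of 14), glycolysis (9 of 14) and amino acid and one-carbon genes (5 of 11) were lower. Cdkn1a, the p21 cell cycle inhibitor, had 2 UMIs against 81, and Spp1, which encodes osteopontin, 1 against 65.

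Against the same culture condition at day 5 (525 cells each), 51 of 3119 genes were higher (1.64%) and 133 lower (4.26%). With TMM scaling, which moved the median over all genes from -0.06 to 0.13, there were 90 higher and 84 lower genes. Glycolysis genes were lower (13 of 17), and so were Slc16a3, a lactate exporter, at 10.2 CPM (7.00 to 14.4) against 115 CPM (103 to 127), and Bnip3, a mitophagy receptor induced by low oxygen, at 19.2 CPM (14.6 to 24.7) against 202 CPM (187 to 219). Bnip3 has near-identical relatives, so its count is uncertain. Ifitm1 was higher, at 306 CPM (287 to 326) against 101 CPM (90.0 to 113), and 9 of 46 G2 and M phase genes were lower. With TMM scaling 12 of 17 glycolysis genes and 1 of 44 G2 and M phase genes were lower. Effector genes were higher than at day 5, 5 of 11 with TMM scaling (0 lower, median 0.74).

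Among markers of other cell types, 2 reached 50 CPM in these comparisons. Trdc was at 188 CPM (161 to 219) against 85.8 CPM (67.8 to 107) with 50 IU/mL IL-2v, past the threshold. Its levels in the IL-2, 5 IU/mL IL-15 and day 5 cells were 290, 285 and 146 CPM, against 196, 168 and 199 CPM in the matched low-dose IL-2v cells. Ighm was at 263 CPM (231 to 298) against 168 CPM (143 to 197) with 50 IU/mL IL-2v. In the other 3 comparisons it was at 276, 298 and 277 CPM against 323, 391 and 377 CPM. The part of these genes in the differences was not tested.

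**Figure D5:**
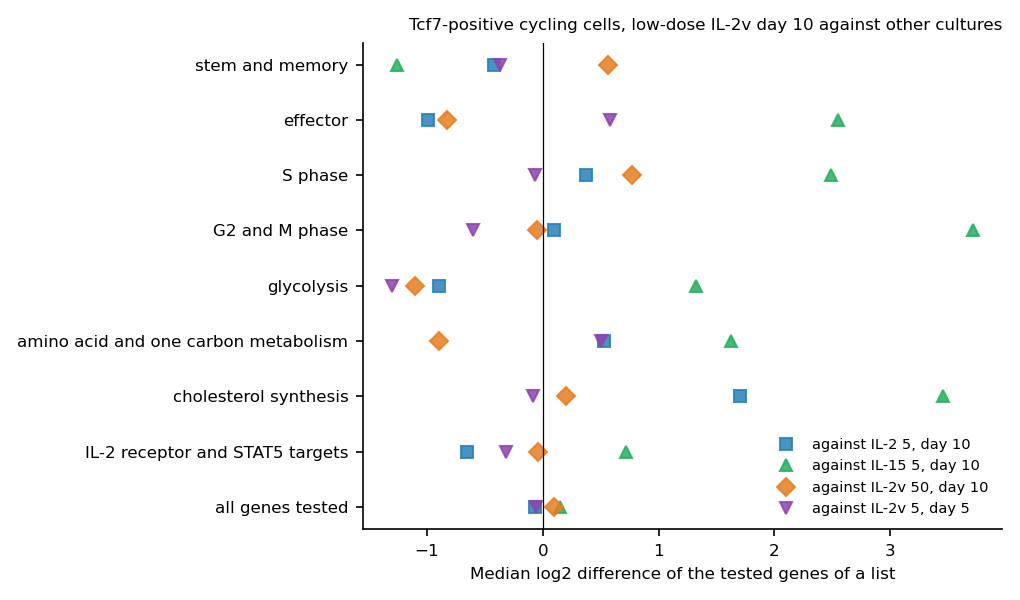
Median log2 difference of the tested genes of 8 lists and of all genes, in Tcf7-positive cycling cells of the low-dose IL-2v culture at day 10 against those of 4 other cultures. Cholesterol synthesis lies at 1.70 against 5 IU/mL IL-2 and at 3.46 against 5 IU/mL IL-15, and glycolysis at -1.30 against day 5.

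TCF-1 binds DNA at a motif that reads CTTTGAT on 1 strand and ATCAAAG on the other. Promoter windows from 250 bases before to 50 after the gene start (RefSeq, GRCm38.p6) were searched for this 7-base sequence on both strands. It was present in 4.29% of genes with a window and in 2.77% of the 2235 tested genes with one. None of the 14 higher or 12 lower genes of the low-dose IL-2v library with a window held it. Among genes called by edgeR it was found in 1 of 15 higher (Cmah) and 1 of 25 lower genes (Tnfrsf9). The 67 bases around each match are printed because they are the only matches among the called genes, with the motif in capitals, plus strand, 5′ to 3′. A match is a run of letters and not a shown binding site.
Cmah, chr13:24327158-24327224: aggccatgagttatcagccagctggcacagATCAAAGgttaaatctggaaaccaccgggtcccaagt
Tnfrsf9, chr4:150920045-150920111: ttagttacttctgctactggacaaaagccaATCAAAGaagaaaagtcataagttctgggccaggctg
The matches begin 216 and 80 bases before the RefSeq start used for each window. For Tnfrsf9 this is not the first start of the gene, which in GENCODE M21 begins upstream of the window, at chr4:150914562-150946102.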

How the data were processed

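Each library was a deposited table of UMI counts per gene symbol and cell (counts, not normalized by the authors); per the submitters' processing notes, Cell Ranger, Seurat 3.0.2 and 4.0.1 and mm10 were used. Cells with under 1000 UMIs, under 500 genes or over 10% mitochondrial UMIs were removed (2 in all, 0 in the library described). Doublets were not called; cells above 2 times the median UMIs were left out as an alternative. Cells were matched in bins of 0.1 log2 UMIs, their counts summed and scaled to CPM, and compared as log2(CPM + 1) among genes with at least 50 CPM in either group. Genes called were 0.32 apart on this scale within the library and 2-fold apart between cultures. The other libraries, 1 per condition, were tested with edgeR 4.0.16 (filterByExpr, TMM, library block) and DESeq2 1.42.0 in R 4.3.3; tables were made in Python 3.11.15. On simulated counts for that test (6916 genes), 90% of 100 genes changed 2-fold and 20% of 100 changed 1.25-fold were recovered, with 2 false calls. The simulation took the better covered genes, with a fixed dispersion and the same change in every library. The spread between the real cultures was not simulated, so these figures may not hold for the real data. Gene positions and overlaps came from GENCODE M21 and near-identical transcripts from BLAST 2.17.0. Named genes were the 12 highest and 12 lowest called within the library, the 8 at each end of the edgeR test, the 5 at each end of other comparisons, and members of the gene lists. The cells and lists were chosen with earlier results of these data known. Nothing in the labels shows separate cultures of 1 condition. A gene among those named by this rule is not reported here.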

Additional observations from a re-analysis of the deposited data

Results flagged for a closer look

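Among the 24 genes named in the low-dose IL-2v library, 2 also passed the log2 threshold of 0.32 in another day 10 library, but in the opposite direction; these differences between libraries were not tested. Pam16 was lower in Tcf7-positive cycling cells with 5 IU/mL IL-2v (log2 difference -0.34) and higher with 50 IU/mL IL-2v (0.34). Ripor2 had a difference of 0.47 in the low-dose IL-2v library. In the 5 IU/mL IL-15 library, where each group held 67 cells, it was -0.36. Calls were common in these smaller sets. Over all genes with at least 50 CPM, 487 of 2851 were called higher with 50 IU/mL IL-2v. With 5 IU/mL IL-15, 696 of 2844 were called lower. An opposite call of a single gene is thus not unusual there.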

How the results depend on the processing

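The thinned share of 13.6% of cycling cells with a Tcf7 UMI was 37.8% without thinning, 7.53% at 1000 UMIs and 16.5% with cycling called from at least 3 UMIs of the cell cycle lists. The 16 higher and 14 lower genes of the low-dose IL-2v library became 6 higher without matching, 158 and 124 with at least 2 Tcf7 UMIs (282 cells), 28 higher without cells above 2 times the median UMIs, 55 and 33 with totals lacking ribosomal and mitochondrial genes, 10 and 7 with a pseudocount of 10, 122 and 82 at 20 CPM, 1413 and 1243 without a filter and 1 and 3 at 1.5-fold. With at least 3 UMIs of Mki67 and Top2a together, chosen after seeing the data, they were 28 and 23. Of the 16 higher genes, 9 were also called with matching on Mki67 and Top2a UMIs as well (18 called), 10 with those 3 UMIs, 6 without matching and 13 with TMM scaling; of the 14 lower genes 9 were called without cells above 2 times the median UMIs (16 called), and 13, 13, 11 and 14 in the others. Without a filter on low values, 6555 genes in place of 855 were apart from Tcf7-positive non-cycling cells. In the same way 1614 in place of 312 (5 IU/mL IL-2), 3261 in place of 746 (5 IU/mL IL-15), 3708 in place of 296 (50 IU/mL IL-2v) and 1226 in place of 184 genes (day 5) were apart between cultures. The edgeR counts of 18 higher and 30 lower became 4 and 3 with DESeq2, 50 and 76 without a filter, 38 and 68 without matching, 0 and 0 without the library block (17 and 10 at an unadjusted p below 0.05), and 927 and 1068 in all other cytokine libraries. Leaving out each library gave 0 to 28 higher and 4 to 64 lower genes. No named gene changed sign past its threshold in any setting run; among the tested genes 142 values under other settings lost the call and 265 kept it, and the cause was not tested. The edgeR test was paired by library, and the counts without the library block above are those of the unpaired fit; the labels carry no replicate numbers to pair by. Depth limits the low-dose IL-2v contrast to genes above 50 CPM, and the 5 IU/mL IL-15 library, at 67 cells per group, to larger differences.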
